A study of Mus musculus with 10 samples.

Results

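Guanylin and natriuretic peptide signalling was followed in the kidney cortex of diabetic mice through 7 genes: the ligands Guca2a and Guca2b, the receptors Gucy2c, Npr1, Npr2 and Npr3, and the kinase Prkg2. These 7 of the 16475 genes measured were chosen with the db/db and db/m values known, from the same comparison that is described here, so their differences are a description and carry no test. All 7 were found by their Entrez Gene IDs. The db/db group held 5 diabetic mice aged 24 weeks on the BKS background, homozygous for the db mutation of the leptin receptor gene Lepr. The db/m group held 5 nondiabetic littermates of the same age and background, heterozygous for db as the genotype is written, so both groups carry the mutant allele and no db-free mice enter the comparison. The tissue was cortex from which glomeruli had been depleted, neither group is labelled as treated, and each mouse gave 1 Affymetrix array. The labels name each array after 1 mouse and state no pooling.

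Guanylin and uroguanylin are small peptides of the gut and kidney that act on guanylate cyclase C, a membrane receptor whose inner part makes cyclic GMP (cGMP). The natriuretic peptides act in the same way on the receptor cyclases encoded by Npr1 and Npr2. The guanylin peptides and the atrial and B-type natriuretic peptides raise the excretion of salt. Npr3 encodes the clearance receptor, which has no cyclase domain and removes natriuretic peptides from the circulation, and Prkg2 encodes the type II cGMP-dependent kinase, which relays the cGMP signal at epithelial membranes.

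Guca2a was 2.00-fold higher in db/db cortex and Prkg2 1.47-fold higher, Npr3 was 2.38-fold lower, and for Guca2b, Gucy2c, Npr1 and Npr2 the values of the groups overlapped. Levels are log2 expression values, on which 1 unit is a doubling, and differences are db/db minus db/m with the standard error (SE) of the fit over all genes, for 5 mice per group. Levels are not compared between genes, since probes differ in brightness.

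The promoters of Guca2a and Guca2b are shown because these genes are neighbours on chromosome 4, read towards each other and 17.14 kb apart in RefSeq's GRCm38.p6 annotation, and yet differed by unequal amounts between the groups. Each line gives the 250 bases before the annotated start, 5′ to 3′ on the gene's own strand, at chr4:119637482-119637731 on the plus strand for Guca2a and at chr4:119658946-119659195 on the minus strand for Guca2b. Capitals mark matches to the motifs described after the sequences.
Guca2a promoter: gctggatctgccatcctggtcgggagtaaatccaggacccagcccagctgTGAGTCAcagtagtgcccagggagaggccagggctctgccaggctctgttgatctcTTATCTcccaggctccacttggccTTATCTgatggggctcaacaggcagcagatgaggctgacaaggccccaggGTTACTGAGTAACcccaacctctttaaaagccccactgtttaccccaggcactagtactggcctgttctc
Guca2b promoter: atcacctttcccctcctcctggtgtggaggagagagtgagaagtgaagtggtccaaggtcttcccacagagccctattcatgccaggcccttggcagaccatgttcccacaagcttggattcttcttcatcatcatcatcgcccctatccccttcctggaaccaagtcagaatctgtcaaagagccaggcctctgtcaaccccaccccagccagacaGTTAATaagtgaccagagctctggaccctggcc
The Guca2a window holds GTTACTGAGTAAC, a match to the palindrome of the HNF1 type, with arms of GTTA and TAAC, named for a family of transcription factors of kidney and gut epithelium, at bases 70 to 58 before the start. The pattern searched fixed these arms with a T and an A between them, and left the other bases between the arms free. This loose pattern was found in 13 of 32851 mouse promoter windows of the same length, or 0.0396%. A stricter palindrome was not searched. The same window holds 1 match to an AP-1 type motif, TGANTCA, which is present in 6.75% of windows. It also holds 2 matches to the motif of GATA factors, searched as AGATAA, which is present in 9.99% of windows. Both lie on the opposite strand and read TTATCT here. The Guca2b window holds only GTTAAT of the motifs searched, 1 arm of the HNF1 type palindrome, at bases 33 to 28 before the start, which 6.43% of windows carry. Both strands were searched, no match shared bases with another, and TATAAA, found in 12.4% of windows, was in none of the 5 windows on hand, those of Guca2a, Guca2b, Npr1, Npr2 and Npr3. The Npr3 window on chromosome 15 holds 1 GTTAAT, and those of Npr1 and Npr2 hold no match. The motifs were chosen after the sequences had been seen, and a match is a description of letters, not a binding site.

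Guca2a, the guanylin precursor gene (Entrez Gene 14915), had levels of 10.62, 10.31, 10.70, 10.49 and 10.61 in db/db mice 1 to 5, against 9.50, 9.61, 9.49, 9.74 and 9.40 in db/m mice 1 to 5. Every db/db mouse lay above every db/m mouse, with a gap of 0.58 between the lowest db/db and the highest db/m value. The means were 10.55 ± 0.15 in db/db and 9.55 ± 0.13 in db/m (SD, n = 5 each), a difference of 1.00 ± 0.09 (SE; 95% interval 0.79 to 1.21). Over the fits that left out 1 array it stayed between 0.96 and 1.06. Over all genes 341 had a higher difference than Guca2a.

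Guca2b, the uroguanylin precursor gene (Entrez Gene 14916), had levels of 13.49, 13.50, 13.34, 13.39 and 13.44 in db/db mice, against 13.36, 13.23, 13.25, 13.34 and 13.32 in db/m mice. The groups overlapped, since db/db mouse 3 lay below db/m mice 1 and 4. The means were 13.43 ± 0.07 in db/db and 13.30 ± 0.06 in db/m (SD, n = 5 each), a difference of 0.13 ± 0.06 (SE; 95% interval -0.0036 to 0.27). The interval reaches from about no change to far less than the difference of Guca2a. The mean level of Guca2b lay at percentile 98.7 of all genes. Whether signal near the top of the array's range narrows its difference was not tested. With each array centred on its median, which moves the median difference of all genes by -0.07, the Guca2b difference was 0.06.

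Gucy2c (Entrez Gene 14917, chromosome 6), which encodes guanylate cyclase C, had levels of 5.22, 5.73, 5.44, 5.56 and 5.31 in db/db mice, against 5.69, 5.72, 5.68, 5.91 and 5.63 in db/m mice. All db/db mice but number 2 were below every db/m mouse. The means were 5.45 ± 0.20 in db/db and 5.72 ± 0.11 in db/m (SD, n = 5 each), a difference of -0.27 ± 0.10 (SE; 95% interval -0.50 to -0.043, not adjusted for the other genes). The gene is dim on this array, its mean lying among the lowest 25% of genes, where a level can be mostly background. How much of it is signal of the receptor's own transcript was not tested.

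Npr3 (Entrez Gene 18162, chromosome 15), the clearance receptor gene, had levels of 5.70, 6.04, 6.82, 6.73 and 6.54 in db/db mice, against 7.54, 7.59, 7.67, 7.75 and 7.52 in db/m mice. All db/db mice were below all db/m mice, with a gap of 0.70, and the db/db mice spread widely while the db/m mice lay close together. The means were 6.36 ± 0.48 in db/db and 7.61 ± 0.09 in db/m (SD, n = 5 each), a difference of -1.25 ± 0.20 (SE; 95% interval -1.69 to -0.81). Only 95 genes had a lower difference. The lowest values were those of db/db mice 1 and 2: without mouse 1 the difference was -1.08, and without both it was -0.92.

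Those were also the db/db mice with the highest tubular injury markers. The mean level of 6 injury genes (Lcn2, Havcr1 and others, of which Clu alone rose past the threshold) was 12.75, 9.39, 8.35, 7.96 and 7.89 in db/db mice 1 to 5, against 7.39 to 8.57 in db/m mice. The mean of 5 leukocyte markers was 10.86 and 8.69 in db/db mice 1 and 2 and 7.11 to 7.68 in db/db mice 3 to 5, against 7.84 to 7.99 in db/m mice. The injury means of db/db mice 3 to 5 were above those of db/m mice 1, 2, 3 and 5 (7.39 to 7.68) and below that of db/m mouse 4 (8.57), whereas their leukocyte means were below all db/m mice. Npr3 was 6.82, 6.73 and 6.54 in db/db mice 3 to 5, so among them it was highest where the injury mean was highest. In db/m mice it was 7.52 to 7.75, and db/m mouse 4 had the highest value. The part of injury in the spread of Npr3 among db/db mice was not tested.

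Npr1 (Entrez Gene 18160, chromosome 3), the receptor gene for atrial and B-type natriuretic peptide, had levels of 8.46, 9.02, 8.74, 8.73 and 9.25 in db/db mice, against 8.93, 8.96, 9.02, 8.47 and 8.42 in db/m mice. Both groups spanned nearly the same range. The means were 8.84 ± 0.30 in db/db and 8.76 ± 0.29 in db/m (SD, n = 5 each), a difference of 0.08 ± 0.17 (SE; 95% interval -0.30 to 0.46). The sign turned without db/db mouse 5, at -0.02, and without db/m mouse 5, at -0.0039.

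Npr2 (Entrez Gene 230103, chromosome 4), the receptor gene for C-type natriuretic peptide, had levels of 10.56, 10.70, 10.72, 10.62 and 10.64 in db/db mice, against 10.86, 10.73, 10.83, 10.76 and 10.53 in db/m mice. All db/m mice but number 5 were above every db/db mouse, and db/m mouse 5 was below them all. The means were 10.65 ± 0.06 in db/db and 10.74 ± 0.13 in db/m (SD, n = 5 each), a difference of -0.09 ± 0.08 (SE; 95% interval -0.26 to 0.076). Whether the difference of Npr3, the clearance receptor gene, departs from those of the cyclase receptor genes was not tested.

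Prkg2 (Entrez Gene 19092, chromosome 5), the kinase gene, had levels of 5.65, 5.99, 6.01, 6.04 and 5.96 in db/db mice, against 5.45, 5.41, 5.53, 5.29 and 5.17 in db/m mice. The groups did not overlap, with a gap of 0.12 that is set by db/db mouse 1, the lowest of its group. The means were 5.93 ± 0.16 in db/db and 5.37 ± 0.14 in db/m (SD, n = 5 each), a difference of 0.56 ± 0.10 (SE; 95% interval 0.34 to 0.78). Without db/db mouse 1 it was 0.63. Prkg2 is as dim as Gucy2c, so its level may hold much background.

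**Figure D1:**
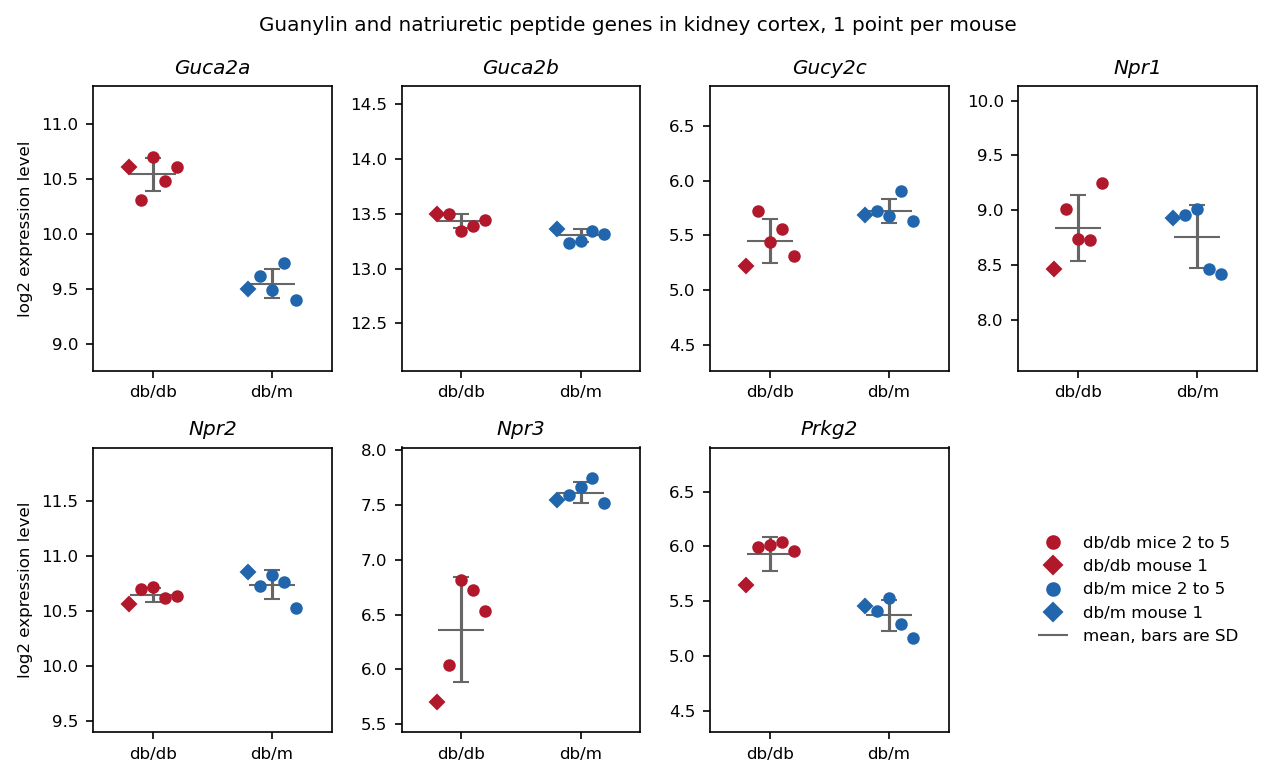
Log2 expression level (vertical axes, the same span in each panel) of the 7 genes in 5 db/db mice (red, left) and 5 db/m mice (blue, right), with 1 point per mouse, diamonds for mouse 1 of each group, and the mean with SD bars. Guca2a and Prkg2 are higher in db/db with no overlap, Npr3 is lower with no overlap, and the other panels overlap.

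Among the 7 genes, 3 passed an adjusted p of 0.05, Guca2a and Prkg2 higher and Npr3 lower in db/db. By limma 1072 of 16475 genes passed it, 6.51% of all, 488 higher and 584 lower (2104, or 12.8%, without db/db mouse 1, and 490 to 684 with any of db/db mice 2 and 3 and db/m mice 1, 3, 4 and 5 left out). The same 3 genes were those whose groups did not overlap, against 1679 genes or 10.2% of all. As the 7 were picked on this contrast, the shares are background and nothing is read from them. The 7 differences had a median of 0.08, against -0.03 over all genes.

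The rest of the cGMP pathway was described with 33 measured genes of a list of 44, and the other 11 were not analysed here. Of these 33 genes 2 rose past the threshold and 0 fell, or 6.06%, beside 6.51% of all genes, and 6 had an unadjusted p under 0.05. The median difference was -0.03, as over all genes. Without db/db mouse 1 the count was 5, with 4 higher and 1 lower, beside 12.8% of all genes, and without db/db mouse 3 or db/m mouse 3 it was 1.

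Both genes that rose belong to the list of 11 phosphodiesterases and exporters, most of which cleave or export cyclic nucleotides. Abcc4, a transporter (MRP4) that exports cyclic nucleotides along with other organic anions, had levels of 12.34, 11.76, 12.25, 12.12 and 11.95 in db/db mice, against 10.89, 10.56, 10.55, 10.63 and 10.75 in db/m mice. All db/db mice were above all db/m mice. The means were 12.08 ± 0.24 in db/db and 10.68 ± 0.14 in db/m (SD, n = 5 each), a rise of 1.41 ± 0.12 (SE; 2.65-fold; adjusted p = 0.000357 by limma), and the rise passed the threshold in all 10 fits that left out 1 array. The related exporter gene Abcc5, named after its values were seen, differed by -0.08 ± 0.10 (adjusted p = 0.724 by limma).

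Pde3b, a phosphodiesterase that is inhibited by cGMP and cleaves mainly cyclic AMP, had levels of 10.55, 10.61, 10.86, 10.77 and 10.58 in db/db mice, against 10.25, 10.20, 10.13, 10.33 and 9.78 in db/m mice. The groups did not overlap. The rise was 0.54 ± 0.11 (SE; 1.45-fold; adjusted p = 0.0211 by limma), and it missed the threshold without db/db mouse 3 (adjusted p = 0.0508) and without db/m mouse 3 (adjusted p = 0.0598). Pde1a, a calcium-activated phosphodiesterase gene named after its values were seen, had a difference of -0.70 ± 0.24 with all arrays (adjusted p = 0.116) and fell by 0.46 without db/db mouse 1 (adjusted p = 0.0295).

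Of 8 ligand and processing genes, 0 passed by limma and 2 had an unadjusted p under 0.05. Nppc, the C-type natriuretic peptide gene, had levels of 6.49, 7.02, 7.00, 6.59 and 6.87 in db/db mice, against 6.50, 6.41, 6.35, 6.33 and 6.68 in db/m mice. Its difference was 0.34 ± 0.12 (SE; adjusted p = 0.140 by limma), and without db/db mouse 1 it rose by 0.41 (adjusted p = 0.0342). Mme, the gene of neprilysin, which degrades natriuretic peptides, was named after its values were seen and differed by -0.52 ± 0.20 (adjusted p = 0.157).

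Nppa and Nppb, the genes of atrial and B-type natriuretic peptide, were also named after their values were seen. Nppa had levels of 5.88, 5.39, 5.73, 5.21 and 5.17 in db/db mice, against 6.31, 6.22, 6.43, 10.12 and 5.57 in db/m mice. A single db/m mouse, number 4, stood far above the other mice. The difference was -1.46 ± 0.73 (SE; adjusted p = 0.283 by limma), and -0.66 without that mouse. The mean of 4 adipocyte markers, of which Adipoq and Cidec were dim and 0 passed by limma, was 6.63 to 7.05 in db/db mice, against 8.74 in db/m mouse 4 and 6.64 to 6.80 in the other db/m mice. Whether admixed tissue has a part in its Nppa level was not tested. Nppb, which is dim, differed by -0.14 ± 0.15 (SE; adjusted p = 0.631 by limma).

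Of 7 genes for other guanylate cyclases and nitric oxide synthases, which make cGMP or the gas that stimulates its synthesis, 0 passed by limma and 1 had an unadjusted p under 0.05. That gene, Nos3 of the endothelial synthase, differed by 0.35 ± 0.14 (SE; adjusted p = 0.181). Gucy1b1, a subunit gene of the soluble guanylate cyclase named after its values were seen, had levels of 6.55, 7.51, 7.60, 7.89 and 7.49 in db/db mice, against 6.94, 7.19, 7.13, 6.70 and 6.93 in db/m mice. The lowest of all 10 values was that of db/db mouse 1, while the other db/db mice were above every db/m mouse. The difference was 0.43 ± 0.22 (SE; adjusted p = 0.296 by limma), and without db/db mouse 1 it rose by 0.64 (adjusted p = 0.00714).

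Of 7 cGMP effector and transport target genes, 0 passed by limma and 0 had an unadjusted p under 0.05. Pdzk1, a scaffold gene of the proximal tubule brush border, had the lowest adjusted p, 0.266, with a difference of -0.15 ± 0.07 (SE). Prkg1, the type I kinase gene named after its values were seen, differed by -0.09 ± 0.15 (SE; adjusted p = 0.766 by limma; 95% interval -0.42 to 0.24). It is dim as well, its mean lying among the lowest 25% of genes.

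**Figure D2:**
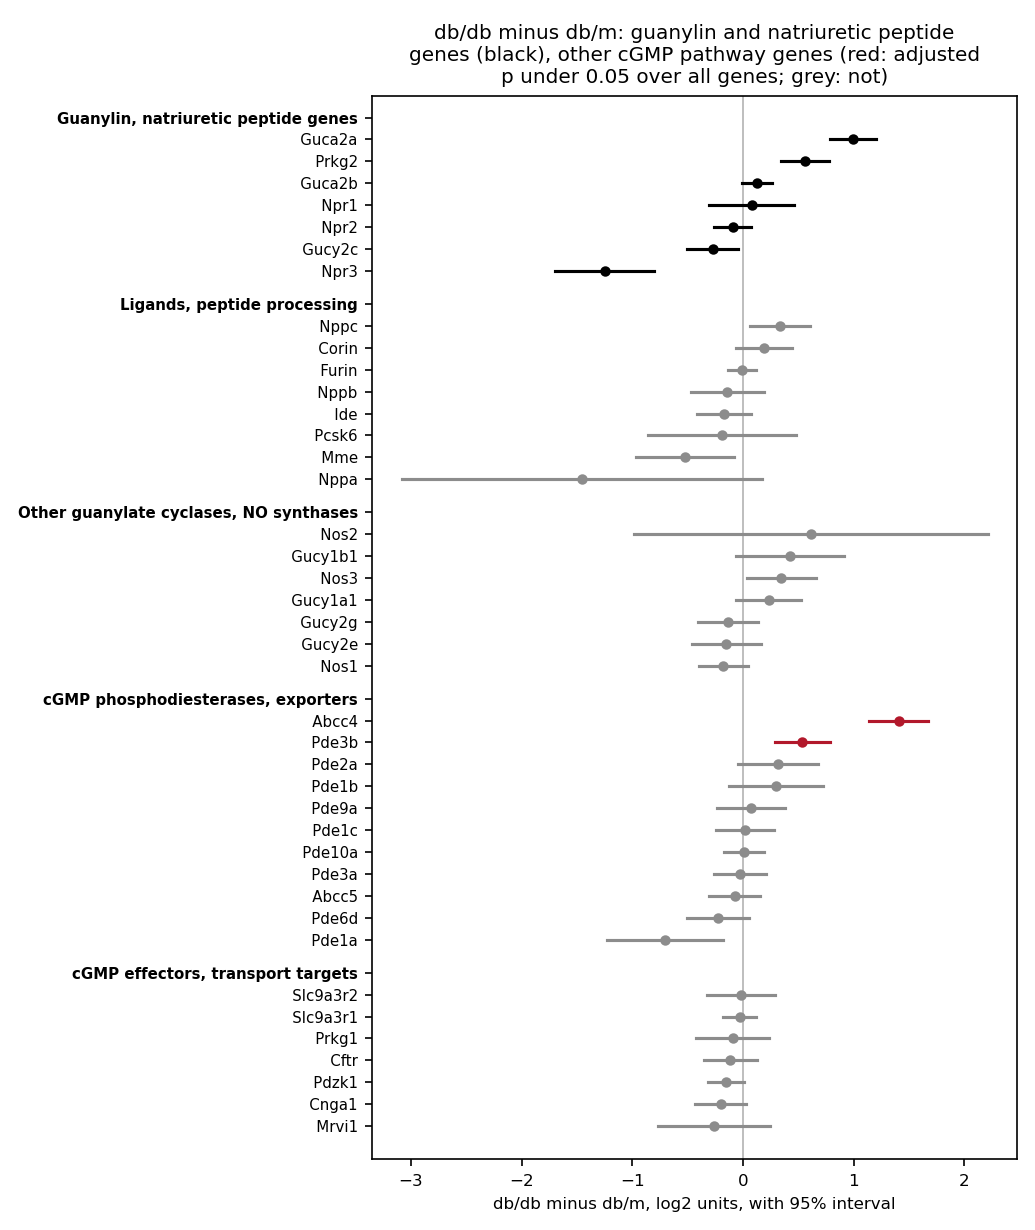
Difference db/db minus db/m in log2 units (horizontal axis, 5 mice per group) with its 95% interval for the 7 genes (black) and 33 other genes of the cGMP pathway, grouped by role; red marks the 2 past an adjusted p of 0.05. Abcc4 lies farthest to the right and Pde3b at a difference close to that of Prkg2, while most other pathway genes have intervals that cross 0.

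Cell type markers were set beside these values because the tissue is a mixture. In bulk tissue fewer cells of a type and less RNA per cell cannot be told apart. Npr3 is known as a podocyte-expressed gene as well as a vascular one, and cortex depleted of glomeruli still held podocyte transcripts. Of 8 measured podocyte markers 6 rose past the threshold (Synpo, Wt1, Ptpro, Cdkn1c, Nes and Plce1) and 0 fell, with a median difference of 0.55. Over all genes 6.51% passed, in either direction. The mean level of the 8 was 8.80 to 9.21 in db/db mice, against 8.42 to 8.60 in db/m mice. Nphs1 and Podxl did not pass (adjusted p = 0.119 and 0.269 by limma). Whether the share of glomeruli left after depletion differed between the groups was not tested, nor was its part in the Npr3 difference.

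With all arrays the injury list had a larger median difference than the podocyte list, 1.15, with 1 of 6 genes past the threshold. Without db/db mouse 1 its differences were Lcn2 2.28, Krt20 1.01, Clu 0.37, Sox9 0.30, Vcam1 0.05 and Havcr1 -0.21. Krt20 and Clu then passed the threshold. Without db/db mouse 1 the markers of the distal convoluted and connecting tubule that rose were 5 of 6, against 1 with all arrays. Those of the principal cell that rose were then 4 of 7, against 0. Over all genes 12.8% passed without that mouse, against 6.51% with all arrays. The distal list means were 9.92 in db/db mouse 1 and 11.63 to 11.89 in the other db/db mice, against 11.11 to 11.45 in db/m mice. The principal cell means were 9.63 in db/db mouse 1 and 10.73 to 10.90 in the other db/db mice, against 10.25 to 10.53 in db/m mice. Of 10 endothelial markers 0 passed by limma, and of 8 mesangial, smooth muscle and renin cell markers Rgs5 alone did, higher in db/db. Of 6 markers of the S3 segment of the proximal tubule 4 fell past the threshold (Slc22a7, Acsm3, Slco1a1 and Cyp7b1). The list means were 9.51 to 10.51 in db/db mice, against 12.16 to 12.83 in db/m mice. Of the other S3 markers, Slc7a13 differed by -1.72 ± 0.48 (SE, adjusted p = 0.0624 by limma). Slc5a1 went the other way, by 0.43 ± 0.15 (SE, adjusted p = 0.123 by limma). Of 7 markers of the S1 and S2 segments 0 passed. The part of cell type shares in the differences of Guca2a, Npr3 and Prkg2 was not tested.

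**Figure D3:**
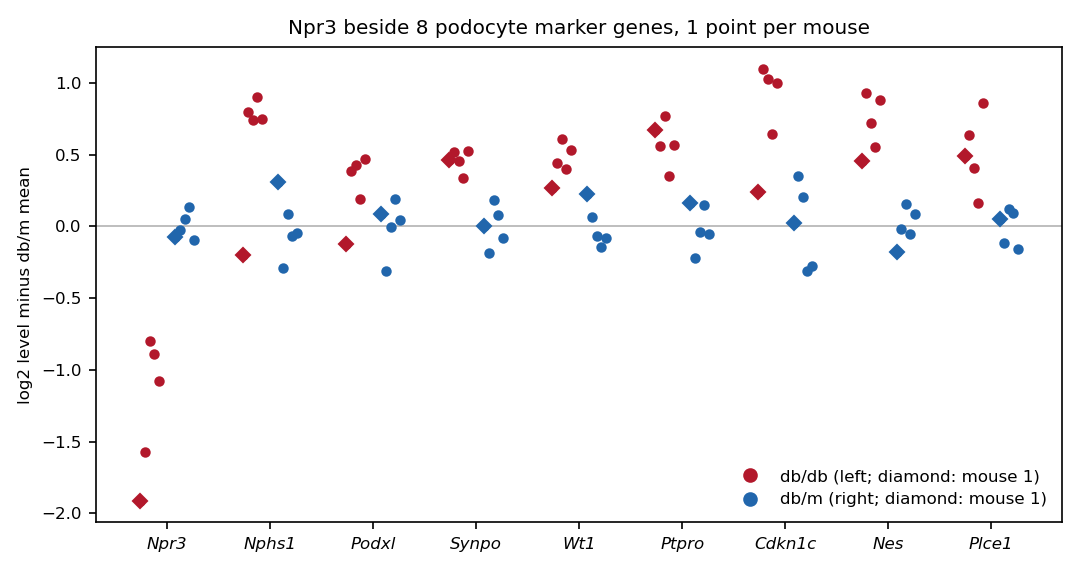
Level of Npr3 and of 8 podocyte marker genes in each mouse, as log2 level minus the db/m mean of the gene (vertical axis), with 5 db/db mice (red, left) and 5 db/m mice (blue, right) per gene and diamonds for mouse 1. Npr3 lies below 0 in all db/db mice, at -1.91 to -0.80, while most db/db points of the marker genes lie above 0.

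Guca2a, Guca2b and Npr2 lie on chromosome 4, the chromosome of Lepr, as do Nppa and Nppb of the pathway list. In db/db mice genes of this chromosome can be homozygous for the segment that travels with the db allele. Guca2a starts 17.82 Mb from Lepr and Npr2 58.07 Mb from it, in the RefSeq annotation. Within 20 Mb of Lepr 26 of 245 measured genes passed the threshold, or 10.6%, Guca2a among them, 12 higher and 14 lower. Over the rest of the chromosome 54 of 748 did, or 7.22%, and over all genes 6.51%. The count within 20 Mb was 40 without db/db mouse 1, 16 without db/db mouse 2, 17 without db/db mouse 3, 17 without db/m mouse 2, 16 without db/m mouse 3, 13 without db/m mouse 4 and 14 without db/m mouse 5. In the same order, the counts over all genes were 2104, 644, 674, 773, 490, 576 and 683, beside 1072 with all arrays. The count near Lepr thus moved along with that over all genes. Of those 245 genes 3 had a higher difference than Guca2a. Lepr itself, dim on the array, differed by -0.08 ± 0.08 (SE; adjusted p = 0.637 by limma), with means of 4.48 ± 0.14 in db/db and 4.56 ± 0.09 in db/m (SD, n = 5 each). The db mutation is known to alter splicing of Lepr, so this level does not check the genotype.

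Nearer by, the 10 measured genes on each side of Guca2a and Guca2b span 1763 kb. With all arrays their differences lay between -0.51 and 0.77, all below that of Guca2a. Without db/db mouse 1 a neighbour with no symbol in the probe annotation had a higher difference, 1.13 (adjusted p = 0.00896 by limma; 0.77 with all arrays, adjusted p = 0.274), than Guca2a, which differed by 0.98. Of these 20 genes 2 passed the threshold by limma: Cited4, a transcriptional coactivator gene that is dim on the array, rose by 0.52 ± 0.08 (SE; adjusted p = 0.00521) and AU022252 fell by 0.51 ± 0.10 (SE; adjusted p = 0.0143). Each passed in all 10 fits that left out 1 array. The 2 genes are 10% of the neighbours, beside 6.51% of all genes. Without db/db mouse 1 the count of neighbours was 5 of 20, beside 12.8% of all genes. The diabetic state and the chromosome segment that all db/db mice share cannot be told apart.

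**Figure D4:**
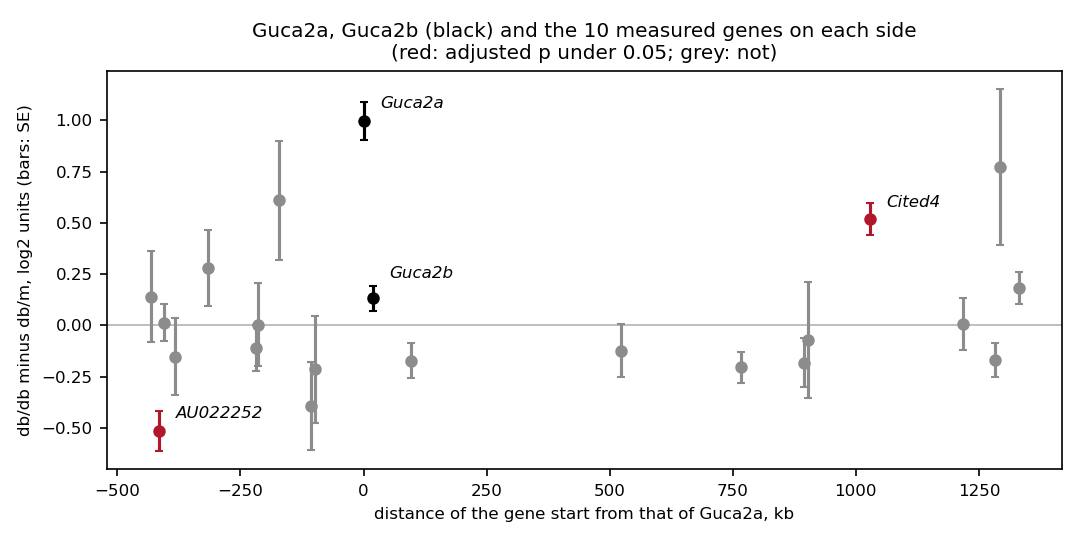
Difference db/db minus db/m in log2 units with SE bars (vertical axis, 5 mice per group) against the distance of a gene's start from that of Guca2a in kb (horizontal axis), for Guca2a and Guca2b (black) and the 10 measured genes on each side; red marks an adjusted p under 0.05. With all arrays Guca2a stands highest at 1.00, which does not hold without db/db mouse 1, and Guca2b beside it lies at 0.13.

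The genes whose levels ran most like each of the 7 were found by Pearson's r over all 10 arrays. The points share their group and array, so genes that differ strongly between the groups score high, and the values are a description. Guca2a was most like Cyp2j6, a cytochrome P450 gene within 10 Mb of Lepr (r = 0.980), followed by Antxr1, an anthrax toxin receptor gene (0.978), and Prkar1b, a regulatory subunit gene of the cyclic AMP-dependent kinase (0.973). Npr3 was most like Ido2, a tryptophan-degrading enzyme gene (0.985), Azgp1, which encodes zinc-alpha-2-glycoprotein (0.980), and Arhgef19, an exchange factor gene (0.980). Their differences were -2.05 ± 0.36, -0.94 ± 0.15 and -0.58 ± 0.11 (SE). Prkg2 was most like Tmem54 (0.969), the monoamine oxidase gene Maob (0.963) and the GTPase gene Rab30 (0.961). Their differences were 1.52 ± 0.16, 1.39 ± 0.26 and 1.42 ± 0.20 (SE). Like Cyp2j6, Arhgef19 and Tmem54 lie on chromosome 4, within 40 Mb of Lepr, a window that holds 576 of the 16475 genes besides Lepr. Npr3 and Prkg2, which they were most like, lie on chromosomes 15 and 5.

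Among the genes whose groups overlapped, Guca2b was most like Agt, the angiotensinogen gene (0.950), Mmrn2, an endothelial matrix gene (0.938), and Notch2, a receptor gene (0.936). Npr1 was most like Ccdc61 (0.950), Msx1 (0.944) and Klhl17 (0.929), all with differences within 0.05 of 0. Gucy2c was most like Fbxo33 (0.920), Slc39a11 (0.907) and Ryr3 (0.904), and Npr2 most like Col9a2 (0.916), AY074887 (0.912) and Piwil1 (0.896). Without db/db mouse 1, over 9 arrays, r for these 21 pairs was between 0.844 (Ryr3) and 0.987 (Antxr1). The order changed with it: Cyp2j6 was then number 8, Antxr1 number 5 and Prkar1b number 22 in likeness to Guca2a, Ryr3 was number 51 for Gucy2c, and of the top matches Ido2 alone kept its place, for Npr3.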

How the data were processed

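Kidney cortex depleted of glomeruli from 5 db/db and 5 db/m mice was measured on Affymetrix Mouse Genome arrays. The authors deposited log2 expression values from RMA, as the submitters' processing notes name it, with 1 value for each Entrez Gene ID. Its version and how probes were regrouped by gene are not given in the sources used here. Such processing usually equalises the value distributions of arrays, which can hide a shift common to all genes. The values lay between 2.50 and 14.5, the array medians between 8.46 and 8.66, and no further scaling was done. Arrays give no counts, so the number of mice limits the precision. Array db/db 1 correlated with the other arrays at 0.938 to 0.962, whereas those correlated with each other at 0.985 or more.

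Of 16539 rows 64 were control rows and were left out. Of the 16475 genes 15780 had 1 symbol in the probe annotation, and 695 were not listed and stay unnamed. The db/db mice were set against the db/m mice with limma 3.58.1 in R 4.3.3 (lmFit, eBayes without trend, two-sided), with Benjamini-Hochberg adjustment over all 16475 genes and a threshold of 0.05. The script was tested on simulated data. Distances come from RefSeq's gene table and promoters from RefSeq's GRCm38.p6 table, which held windows for 5 of the 7 genes; Gucy2c and Prkg2 are named only. Figures were drawn with matplotlib 3.10.9 in Python 3.11.15.

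The 7 genes, the pathway list and the marker lists were chosen with earlier results of these data known. Besides the 7 genes, the text names pathway genes past the threshold, up to 4 per role, or the one with the lowest adjusted p in a role with none; the 3 most alike genes per member; neighbours past the threshold; and Lepr. Genes said to be named after their values were seen, and the marker genes, lie outside this rule. Alternative fits used a replicate block by mouse number, with and without db/db 1, array weights, a robust eBayes with trend, arrays centred on the median, a repeated quantile normalisation, no dim genes (those in the lowest 25% of mean levels), and 9 arrays with each left out once. Alternative counts used an adjusted p under 0.01, a change of at least 1.5-fold, and windows of 10 and 40 Mb around Lepr. Fits without db/db 1 and 2, and without db/db 1 and db/m 4, were added after seeing the data.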

Additional observations from a re-analysis of the deposited data

Results flagged for a closer look

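The 22 genes described with their roles or as neighbours and the 13 marker lists gave 70 groups of 5 mice. In 11 groups 1 mouse stood apart from the others by more of the group's range than Dixon's 95% limit. Chance gives this in about 1 of 20 unrelated groups. These groups share the same 10 mice, and genes were in part chosen with their values known. The 11 cases can therefore not be set against that rate. Of the 11 cases, 6 were of db/db mouse 1. Its level of Prkg2 was 5.65, against 5.96 to 6.04 in the other db/db mice, and its level of Pdzk1 was 13.08, against 13.31 to 13.38. Its list means were also lower than those of the other db/db mice: 12.56, against 13.17 to 13.20, for proximal tubule S1 and S2, 9.92, against 11.63 to 11.89, for the distal convoluted and connecting tubule, 9.63, against 10.73 to 10.90, for the principal cell, and 9.01, against 10.44 to 10.86, for the intercalated cell. The mean of the mesangial, smooth muscle and renin cell list in db/db mouse 3 was 7.98, against 8.33 to 8.42 in the other db/db mice. The adipocyte mean in db/db mouse 5 was 7.05, against 6.63 to 6.72 in the other db/db mice. In db/m mouse 4 Nppa was 10.12, against 5.57 to 6.43 in the other db/m mice, the adipocyte mean was 8.74, against 6.64 to 6.80, and the tubular injury mean was 8.57, against 7.39 to 7.68.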

How the results depend on the processing

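Of 131 alternative values of the 7 genes' differences 129 kept their sign, and the other two were those of Npr1 given above. The count of the 7 genes past the threshold was 2 with the replicate block, where Prkg2 missed it, 2 with dim genes left out, where Prkg2 was not tested, and 3 in the other alternative fits. Guca2b moved to 0.06 with centred arrays. Counts moved more. Genes changed, 1072 with all arrays, were 393 with the replicate block, 2641 with array weights, 279 at an adjusted p under 0.01, 575 with at least a 1.5-fold change, 1834 without db/db 1 and 2, 1650 without db/db 1 and db/m 4, and 490 (without db/m 3) to 2104 (without db/db 1) with 1 array left out. Other pathway genes changed, 2 with all arrays, were 1 with the block, at an adjusted p under 0.01 and with a 1.5-fold change, 5 with array weights, 4 without db/db 1 and db/m 4, 3 without db/db 1 and 2, and 1 to 5 with 1 array left out. Genes changed within 20 Mb of Lepr, 26 with all arrays, were 9 with the block, 47 with array weights, 9 at an adjusted p under 0.01, 16 with a 1.5-fold change, 13 to 40 with 1 array left out, 10 within 10 Mb and 51 within 40 Mb. Neighbours of Guca2a and Guca2b changed, 2 with all arrays, were 1 with the block, with dim genes left out and at an adjusted p under 0.01, 0 with a 1.5-fold change, 6 with array weights and without db/db 1 and 2, 4 without db/db 1 and db/m 4, and 2 to 5 with 1 array left out. With the block Pde3b (adjusted p = 0.0616) and AU022252 (0.0738) missed the threshold, and with array weights Nppc passed it (0.0418). The mouse numbers were not taken to pair the mice, since same-numbered mice did not deviate together (correlations of -0.095 to 0.0059 over genes). The causes were not tested. Dim signal limits what can be said of Gucy2c, Prkg2, Prkg1, Nppb, Cited4 and Lepr.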
